A study of Xenopus tropicalis with 9 samples.

Results

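Transcripts of 8 genes best known as products of the vertebrate liver were followed across RNA sequencing libraries of adult *Xenopus tropicalis*, the western clawed frog. The genes, 8 of 30330 in the deposited tables, are *vtga2*, *rbp4*, *serpina1*, *serpina3k*, *serpina3m*, *fga*, *ttr* and *cps1*. They were chosen by their TPM and counts, as symbols nearly absent from the intestine library and present in the GI tract library. The contrast between those 2 libraries therefore chose them, and it is described below without a test.

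The 9 libraries came from GI tract (female), intestine (female), testes (male), ovary (female), head (female and male), lung (female) and heart (female and male). The labels give each animal only as adult, with a sex, and name no strain, genotype or treatment. They do not say which organs the GI tract dissection held. Whether different animals were used for different tissues is likewise not stated, and the p-values below reflect only how these samples vary. Head and heart have 2 libraries each, and the other 5 tissues have 1. No liver library is among the 9.

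The liver secretes most of the proteins of blood plasma. Vitellogenin, encoded by genes such as *vtga2*, is the yolk precursor that the liver of egg-laying females makes under estrogen and that growing oocytes take up from the blood. Retinol-binding protein (*rbp4*) and transthyretin (*ttr*) carry vitamin A and thyroid hormone in plasma, the serpins restrain proteases, and the fibrinogen alpha chain (*fga*) forms clots with the beta and gamma chains. The name "liver secretory" covers 7 of the 8 genes, because *cps1* encodes carbamoyl phosphate synthetase, a mitochondrial enzyme of the urea cycle that is not secreted.

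Some libraries held transcripts of tissues other than the one on the label, and 2 of them are used throughout. The testes library contained the digestive enzyme gene *prss1* (trypsin) at 13957 TPM, against 40857 TPM in GI tract. TPM, transcripts per 1000000, is a level corrected for transcript length and depth. The gastric chitinase gene *chia* stood at 22314 TPM in testes and 50276 TPM in GI tract, and the intestinal peptide transporter gene *slc15a1* at 5646 TPM in testes and 17361 TPM in GI tract. In the female head *prss1*, *chia* and *slc15a1* stood at 761, 1543 and 401 TPM, against 1.59, 1.33 and 1.14 TPM in the male head. The depth was 27628254 to 35044545 counts per library, so that 3 counts, used here as the floor of detection, correspond to 0.086 to 0.11 counts per 1000000 (CPM).

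All 8 genes exceeded the floor in GI tract, where they summed to 610 TPM, against 2.85 TPM in intestine. In GI tract each had at least 240 counts. In intestine 6 of the 8 had no count at all, and the 2 with counts were *serpina3m* (6 counts) and *ttr* (35 counts). Near absence from intestine held least for *ttr*, with 18.7 TPM in GI tract and 2.74 TPM in intestine. Because these are bulk samples, fewer cells of a type and less RNA per cell cannot be told apart.

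*vtga2* made up most of the TPM of the 8 genes in GI tract and testes. Its level was 375 TPM in GI tract and 0 in intestine, 113 TPM in testes and 0 in ovary, 8.41 TPM in the female head and 0.19 TPM in the male head, 0.06 TPM in lung, and 0.03 TPM in the female heart and 0.06 TPM in the male heart. Only GI tract and testes were above 100 TPM, and a male library was thus second highest for a yolk precursor. The GI tract count of 59012 against none in intestine is a CPM ratio of at least 18406-fold, computed against the floor of 3 counts. Within the 8-gene sum *vtga2* took 61.5% of the TPM in GI tract, 55.1% in testes, 2.68% in the female head and 0.107% in the male head.

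*rbp4* was the exception to the GI tract pattern. It stood at 76.6 TPM in GI tract and 0 in intestine, 29.4 TPM in testes and 0.59 TPM in ovary, 299 TPM in the female head and 176 TPM in the male head, 1.46 TPM in lung, and 0.16 TPM in the female heart and 0.24 TPM in the male heart. Both heads were above GI tract, by 3.41-fold for the female head (95% interval 3.26 to 3.57) and 1.94-fold for the male head (1.85 to 2.04) in CPM. With TMM scaling, which corrects CPM for the composition of each library, the female head had 177 and the male head 97.3 scaled CPM, against 98.9 in GI tract, so only the female head was then above GI tract. These intervals, and all intervals below, are exact and cover counting error only. Intestine was the only library without an *rbp4* count, and its GI tract level was at least 754-fold higher.

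The 3 serpin genes had similar levels in GI tract and in testes, while in the male head *serpina3m* was well below the others. *serpina1*, which in mammals encodes alpha-1-antitrypsin, had 44.5 TPM in GI tract and 0 in intestine, 19.5 TPM in testes and 0.02 TPM in ovary, 2.10 TPM in the female head and 0.60 TPM in the male head, and 0 in lung and both hearts. *serpina3k* had 45.2 TPM in GI tract and 0 in intestine, 18.7 TPM in testes and 0.27 TPM in ovary, 2.09 TPM in the female head and 0.53 TPM in the male head, and 0 in lung and both hearts. *serpina3m* had 38.3 TPM in GI tract and 0.11 TPM in intestine, 15.1 TPM in testes and 0 in ovary, 1.17 TPM in the female head and 0.04 TPM in the male head, and again 0 in lung and both hearts. In each of the 3, GI tract was highest, followed by testes and then the female head, and these libraries were separated from one another beyond counting error.

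In CPM the GI tract level was at least 689-fold that of intestine for *serpina1*, at least 446-fold for *serpina3k*, and 441-fold for *serpina3m* (202 to 1202). The ratio of *serpina3k* to *serpina1* in TPM was 1.02 in GI tract, 0.955 in testes, 0.995 in the female head and 0.883 in the male head. The 3 genes lie close together in the RefSeq gene order of assembly UCB_Xtro_10.0, with *serpina3* between *serpina3m* and *serpina3k*, and RefSeq gives serpina1 as another name of *serpina3*. Reads of such neighbouring copies can be split between them, so the level of each single gene is less certain than that of the group. *serpina3* was low, with 3.48 TPM in GI tract and 0 in intestine, and 1.40 TPM in testes and 0 in ovary.

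*fga* was read with 9.94 TPM in GI tract and 0 in intestine, 3.14 TPM in testes and 0 in ovary, 0.21 TPM in the female head and 0.13 TPM in the male head, and 0 in lung and both hearts. The genes of the other two fibrinogen chains lie close to it in the RefSeq order, *fgg* adjoining it and *fgb* beyond a coded gene. *fgg* (gamma chain) had 10.9 TPM in GI tract and 0 in intestine and 3.23 TPM in testes, and *fgb* (beta chain) had 9.12 TPM in GI tract, 0.08 TPM in intestine and 6.93 TPM in testes. All 3 fibrinogen genes were at 0 in ovary and both hearts. Testes reached 27.5% of the GI tract CPM for *fga*, 30.1% for *fgg* and 72.9% for *fgb*.

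*ttr* was measured at 18.7 TPM in GI tract and 2.74 TPM in intestine, 4.35 TPM in testes and 0 in ovary, 0.19 TPM in the female head and 0.53 TPM in the male head, 0 in lung, and 0.09 TPM in the female heart and 0 in the male heart. It was the only one of the 8 genes above 1 TPM in intestine. GI tract stood 6.60-fold above intestine in CPM (4.62 to 9.70), the smallest ratio among the 8 genes. Testes and intestine did not differ beyond counting error (1.34-fold in CPM, 0.839 to 2.15), and with TMM scaling their order turned, with 0.885 scaled CPM in testes and 1.41 in intestine. The female and male heads, with 2 and 5 counts, did not differ beyond counting error either.

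*cps1* was the lowest of the 8 genes in GI tract. It had 1.61 TPM in GI tract and 0 in intestine, 2.12 TPM in testes and 0 in ovary, 0.03 TPM in each head, and 0.01 TPM in lung and in each heart. By TPM it was highest in testes, but by CPM it was highest in GI tract, with 4.52 CPM in testes and 6.92 CPM in GI tract. The testes level per count, relative to that in GI tract, was 2.01 for *cps1*, against 1.14 to 1.17 for the 6 other genes with at least 50 counts in both libraries and a median of 1.15 over 13006 genes (5th to 95th percentile 1 to 1.36). The order of testes and GI tract for *cps1* therefore depended on the scale.

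**Figure D1:**
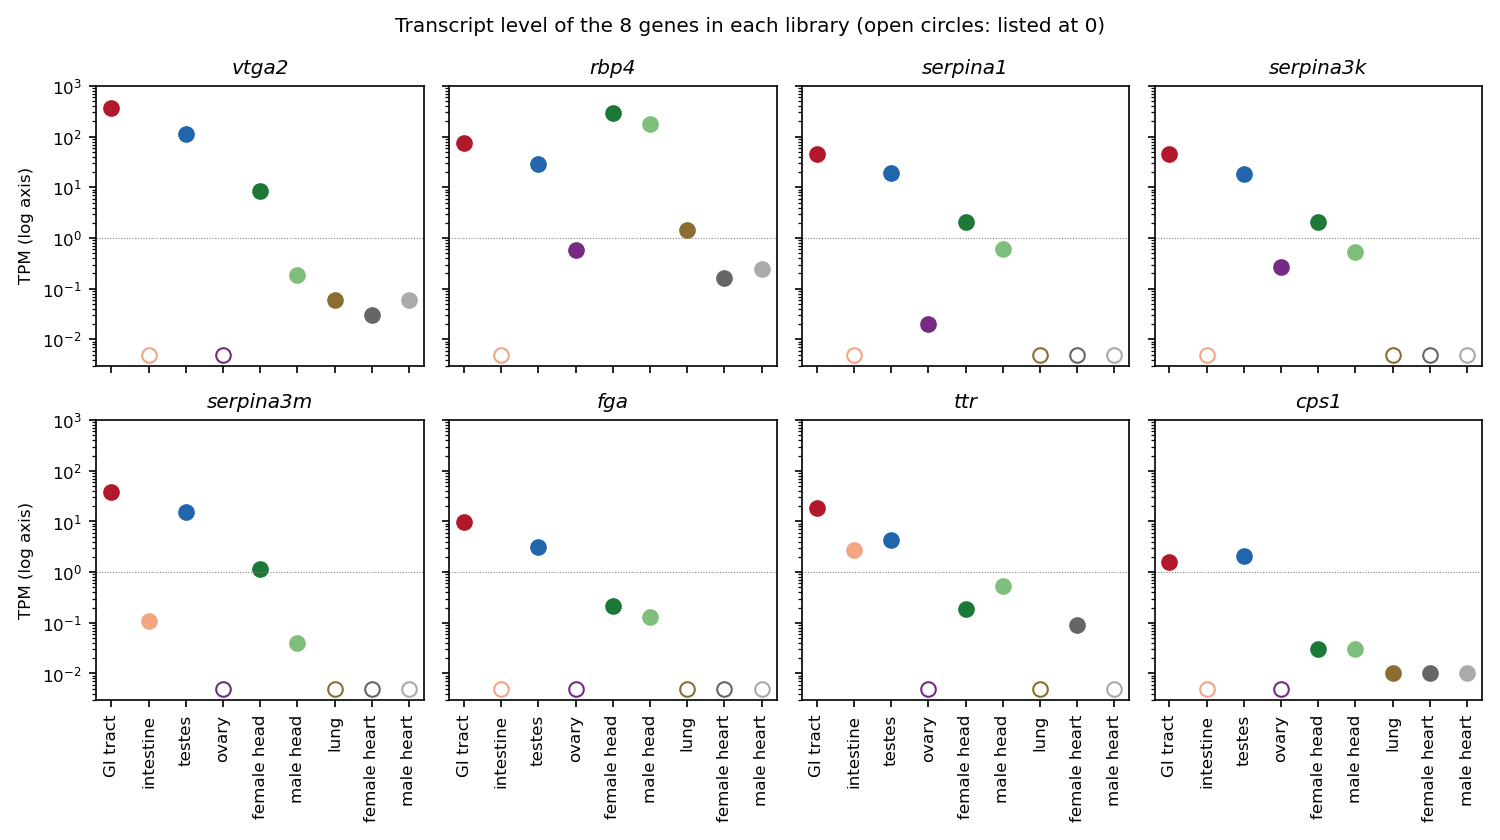
Level of each of the 8 genes in the 9 libraries, in TPM on a log axis. Each point is 1 library, open circles mark a gene listed at 0, and the dotted line is 1 TPM. In 6 of the 8 panels GI tract is the highest point. *rbp4* is highest in the female head and *cps1* in testes (GI tract by CPM).

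By TPM 6 of the 8 genes were highest in GI tract, and by CPM 7 were, with *rbp4* the remaining one. Without the testes library 7 were highest in GI tract by TPM too. At 1 TPM or more, 8 of the 8 genes were found in GI tract and 1 in intestine, 8 in testes and 0 in ovary, 5 in the female head and 1 in the male head, 1 in lung, and 0 in either heart. Across the 9 libraries the log2(TPM + 1) profiles of *serpina1* and *serpina3k* followed the mean of the other 7 genes most closely (Pearson r 0.989 and 0.984), and *rbp4* the least (0.537). *vtga2* had an r of 0.973, *serpina3m* 0.963, *fga* 0.943, *cps1* 0.895 and *ttr* 0.816. The 9 points share 2 high libraries, GI tract and testes, and these values are descriptions.

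Plasma protein genes as a wider group were in part higher in GI tract as well. Of 71 plasma protein genes listed, 53 were matched by symbol and 50 had a mean of at least 0.1 TPM over the libraries. Among these, 12 (24%) were at least 4-fold higher in GI tract and 2 (4%) at least 4-fold lower, on log2(TPM + 1). Over all 24050 genes at that level, 1.65% were 4-fold higher and 0.699% 4-fold lower. This list and those below were made with earlier results of these data known. Their shares are therefore descriptions, and nothing is read from them against all genes. The median difference was 0.80 on the log2 scale for the plasma protein genes, 5.33 for the 8 genes and 0.00 for all genes. Of the 8 genes, 7 passed 4-fold, which their choice fixed and from which nothing is read.

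The 12 plasma protein genes were *hrg*, *fgg*, *ahsg*, *serpinc1*, *vtn*, *fgb*, *ambp*, *fetub*, *apoc2*, *kng1*, *apob* and *f2*. *hrg*, for histidine-rich glycoprotein, had 16.4 TPM in GI tract and 0.03 TPM in intestine. *serpinc1*, for the thrombin inhibitor antithrombin, had 12.6 TPM in GI tract and 0.27 TPM in intestine, and *f2*, for prothrombin, 3.43 TPM in GI tract and 0 in intestine. *apob*, the scaffold of lipoproteins, which intestine also makes, had 300 TPM in GI tract and 66.7 TPM in intestine. The 2 that were 4-fold lower were *cfb*, for complement factor B (40.5 TPM in GI tract and 197 TPM in intestine), and *hpx*, for the heme carrier hemopexin (1.04 TPM in GI tract and 12.8 TPM in intestine). With 1 library of each tissue, these differences have no replicate check of their own. Of the 49 plasma protein genes tested in the fit of all 9 libraries, edgeR called 0 (10 were higher at an unadjusted p under 0.05, as were 163 of all 23090 genes, of which it called 0), and DESeq2 called 0, where it called 0.139% of all genes higher and 0.013% lower in GI tract.

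The 5 plasma protein genes with the highest GI tract level were *apoa1*, *apob*, *tf*, *c3* and *apoc2*. *apoa1*, the main protein of high-density lipoprotein, had 3129 TPM in GI tract and 1113 TPM in intestine. *tf*, for the iron carrier transferrin, had 71.7 TPM in GI tract and 20.3 TPM in intestine, and *c3*, the central complement component, 53.8 TPM in GI tract and 60.1 TPM in intestine. *apoc2*, the activator of lipoprotein lipase, had 44.7 TPM in GI tract and 4.72 TPM in intestine. These 5 were thus present in both libraries. Some of the 8 genes left out of the list were as abundant in GI tract. *vtga2*, at 375 TPM in GI tract and 0 in intestine, stood above *apob*.

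Fewer hepatocyte enzyme genes passed 4-fold. Of 48 measured, 4 (8.33%) were 4-fold higher in GI tract and 1 (2.08%) was 4-fold lower, with a median difference of 0.21. Among those higher were *cyp8b1* and *cyp7a1*, both of bile acid synthesis, and *akr1d1*, which acts on bile acid precursors. *cyp7a1*, the rate-limiting enzyme of the classical pathway, had 8.75 TPM in GI tract and 0.71 TPM in intestine, and *cyp8b1* had 191 TPM in GI tract and 19.0 TPM in intestine. Several enzymes that define hepatocytes were low in GI tract: *otc* stood at 0.32 TPM, *tat* at 0.17 TPM, *hpd* at 0.04 TPM and *tdo2* at 0.62 TPM, with *arg1* at 1.04 TPM in GI tract and 2.27 TPM in intestine. Among 17 measured hepatocyte transcription factor genes none passed 4-fold in either direction, and the median difference was -0.20. *hnf4a* had 55.9 TPM in GI tract and 73.0 TPM in intestine, and *cebpa* 68.7 TPM in GI tract and 86.9 TPM in intestine.

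Genes of the other cell types of the region differed in both directions. Of 22 exocrine pancreas genes, 0 were 4-fold higher in GI tract and 4 were 4-fold lower, and the list summed to 88183 TPM in GI tract and 110126 TPM in intestine. Stomach genes summed to 59535 TPM in GI tract and 41416 TPM in intestine, with 1 of 16 genes 4-fold higher, *pga4* (pepsinogen, 4066 TPM in GI tract and 276 TPM in intestine), and 1 lower. Intestinal epithelium genes summed to 27990 TPM in GI tract and 14915 TPM in intestine, with 1 of 25 genes 4-fold higher. Their part in the difference of the 8 genes was not tested.

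Oocyte genes also stood higher in GI tract, and across the other libraries they followed the 8 genes in some and not in others. Of 17 oocyte genes, 9 were 4-fold higher in GI tract and 0 lower, and the list summed to 115 TPM in GI tract and 4.4 TPM in intestine. The egg coat gene *zp4* had 26.6 TPM in GI tract and 0 in intestine. In testes the oocyte list summed to 2371 TPM, far above its GI tract level, but its genes were uneven. Their testes CPM ran from 53.7% to 24944% of GI tract, with a median of 123%. In TPM *zp4* (22.9 in testes), *wee2* (7.64 in testes and 12.4 in GI tract) and *nanos1* (5.84 in both) were not above GI tract. *velo1* (10.9 in testes and 9.33 in GI tract) and *cpeb1* (39 in testes and 25.4 in GI tract) were. These named genes made up little of the list's sum in testes, most of which came from genes of the list not named here. The 8 genes summed to 206 TPM in testes, below their 610 TPM in GI tract. The oocyte list summed to 195 TPM in the female head, also above GI tract, and to 23.5 TPM in the male head. Without *rbp4*, the other genes summed to 14.2 TPM in the female head, 2.05 TPM in the male head and 533 TPM in GI tract. The oocyte list was also far higher than in GI tract in ovary (2776 TPM), lung (3046 TPM) and the female heart (4178 TPM). The 8 genes summed to 0.88, 1.53 and 0.29 TPM in those libraries. Its part in the levels of the 8 genes was not tested.

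**Figure D2:**
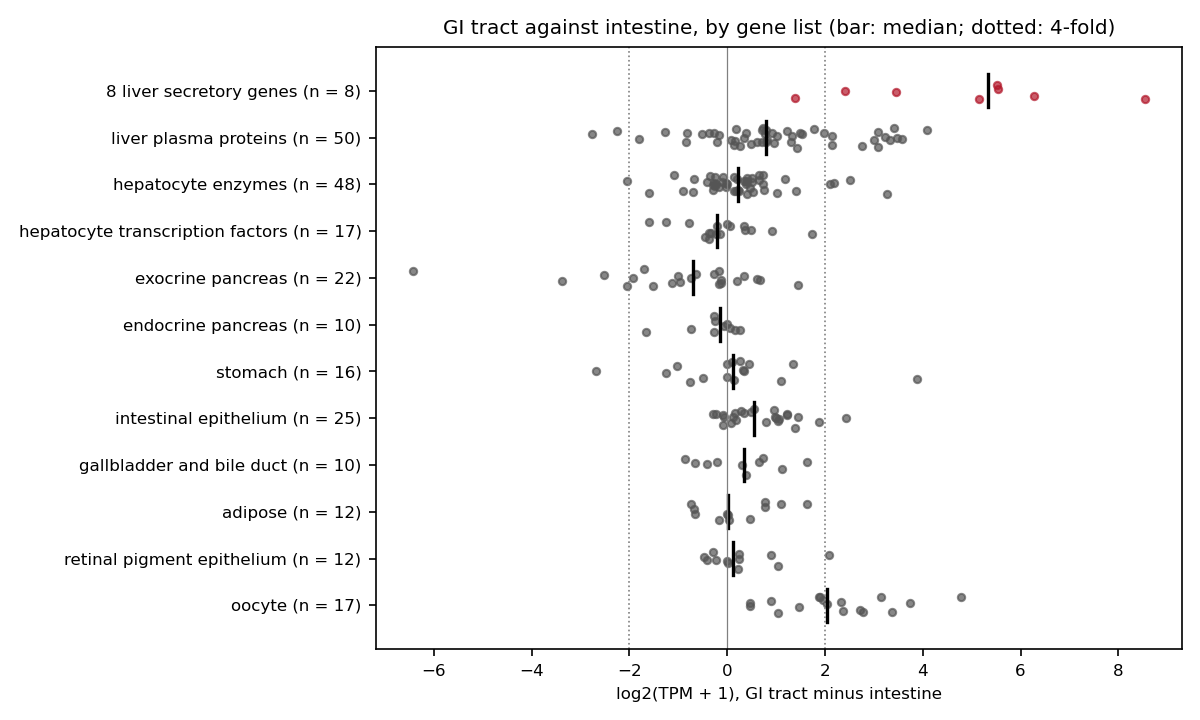
Difference in log2(TPM + 1), GI tract minus intestine, for the 8 genes and 11 gene lists. Each point is 1 gene, the black bar is the list's median, and the dotted lines mark 4-fold. The plasma protein genes spread to the right of 0 with a median of 0.80, and the exocrine pancreas genes lie mostly to the left with a median of -0.69.

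Testes was the second library with all 8 genes over the floor, at 206 TPM in sum against 0.88 TPM in ovary. As a share of the GI tract CPM, *ttr* reached 20.3% in testes (14.3 to 28.0), *vtga2* 26.3% (25.8 to 26.8), *fga* 27.5% (23.0 to 32.8), *rbp4* 33.4% (30.6 to 36.3), *serpina3m* 34.6% (32.0 to 37.4), *serpina3k* 35.1% (31.5 to 39.1), *serpina1* 38.3% (35.2 to 41.6) and *cps1* 65.4% (52.6 to 80.9). The shares of *vtga2* and *serpina1* differed beyond counting error. Gut genes had similar shares, 30.2% for *prss1*, 38.6% for *chia* and 25.8% for *slc15a1*. The median share over the genes with at least 50 counts in GI tract was 34.0% for the 8 genes, 30.7% for exocrine pancreas, 30.4% for stomach and 27.9% for intestinal epithelium genes. The other lists had higher medians, among them 52.2% for plasma protein, 57.8% for hepatocyte enzyme, 40.1% for hepatocyte transcription factor and 39.3% for endocrine pancreas genes. Over all 13689 such genes the median CPM relative to GI tract was 153% in testes, 152% in the female head and 142% in the male head, so the shares given here and below would all be smaller if set against genes in general. The part of these gut transcripts in the testes levels of the 8 genes was not tested.

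Testes against ovary was tested with the quasi-likelihood test of edgeR in a fit of all 9 libraries, in which only head and heart, with a pair each, inform the error. None of the 8 genes was called at an adjusted p under 0.05, against 0% of 23090 genes called in either direction. The adjusted p of the 8 genes ran from 0.118 to 0.206, and 6 of them had an unadjusted p under 0.05, as had 6953 of all genes. *rbp4* was 3.55 ± 1.03 (SE) higher in testes on the log2 scale (edgeR adjusted p = 0.129), and its CPM ratio over ovary was 33.8-fold (21.5 to 56.5). For *vtga2*, with 13643 counts in testes and 0 in ovary, testes was at least 4117-fold higher in CPM. All 8 genes had more counts in testes than in ovary, where only *rbp4* (19 counts) and *serpina3k* (10 counts) were over the floor.

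The call for testes against ovary depended on the tool. Of the 8 genes, 5 had no count in ovary and passed the filter on low counts through other libraries. How many of the 8 were called higher in testes is therefore not read against the shares of all genes. DESeq2 called 5 of the 8 genes higher in testes (*cps1*, *fga*, *rbp4*, *serpina1* and *vtga2*), where 17.5% of all genes were called higher and 9.12% lower. limma on log2(TPM + 1) called 7, all but *vtga2*, where 20.8% were called higher and 1.93% lower. Leaving out either heart library in edgeR gave 5 calls (*cps1*, *fga*, *rbp4*, *serpina1* and *ttr*), where 10750 genes were called without the male heart and 11227 without the female heart. Leaving out either head library gave no call among the 8 genes or among all genes (3125 had an unadjusted p under 0.05 when the female head was left out, and 3129 when the male head was).

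**Figure D3:**
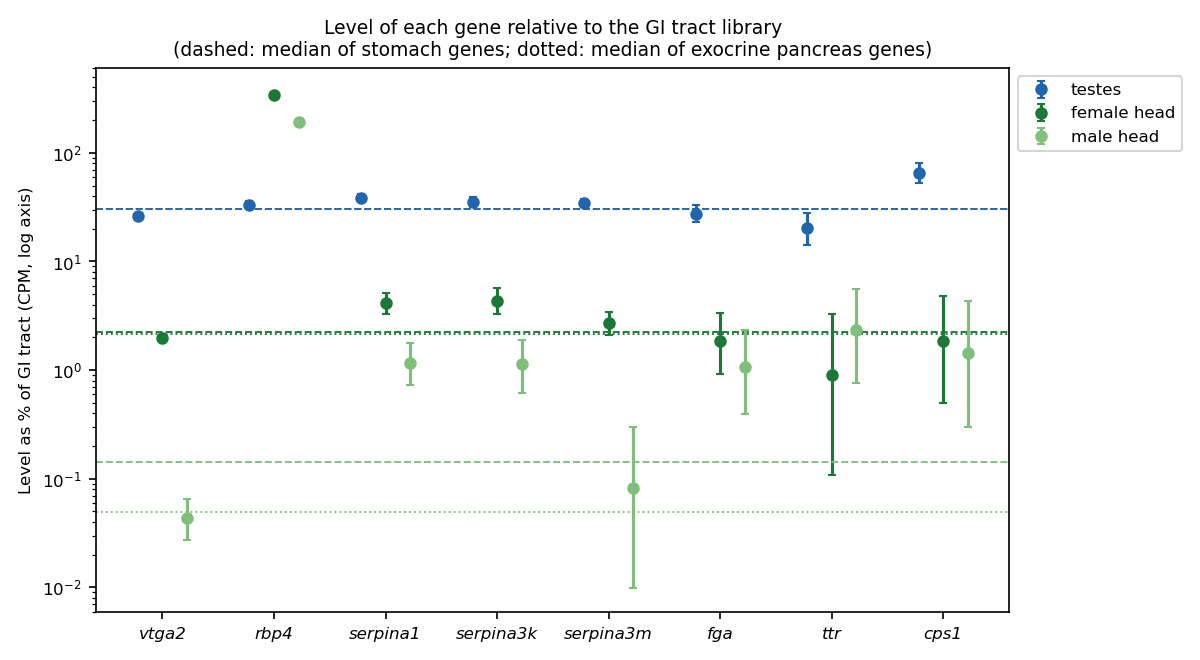
Level of each of the 8 genes in testes, the female head and the male head as a percentage of the GI tract level (CPM, log axis), with exact 95% counting intervals. Horizontal lines give the median for stomach genes (dashed) and exocrine pancreas genes (dotted) in each library. In testes the 8 genes lie between 20.3% (*ttr*) and 65.4% (*cps1*). The testes intervals of *cps1*, *serpina1*, *serpina3k* and *serpina3m* lie above the lines at 30.4% and 30.7%. Those of *ttr* and *vtga2* lie below these lines. *rbp4* in both heads lies above 100%, for the male head not so with TMM scaling.

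In the head libraries *rbp4* behaved apart from the other 7 genes. Without *rbp4* the genes summed to 14.2 TPM in the female head and 2.05 TPM in the male head. Relative to GI tract in CPM, the female head had 1.96% for *vtga2* (1.84 to 2.09), 4.15% for *serpina1* (3.29 to 5.17), 4.33% for *serpina3k* (3.25 to 5.65), 2.70% for *serpina3m* (2.09 to 3.43) and 1.87% for *fga* (0.93 to 3.37). The gut genes *prss1*, *chia* and *slc15a1* stood at 1.67%, 2.68% and 1.83% there. The share was 341% for *rbp4*.

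The male head held far less of the gut genes, with a median of 0.0498% of the GI tract CPM for exocrine pancreas and 0.144% for stomach genes. *vtga2* (0.0433%) and *serpina3m* (0.0822%, from 2 counts) were as low. *serpina1* (1.16%), *serpina3k* (1.14%) and *fga* (1.07%, from 6 counts) were above these medians. They were still between the lower and upper quartiles of both lists, 0.00154% to 2.06% for exocrine pancreas and 0.0126% to 5.54% for stomach genes. *rbp4* reached 194%, but with TMM scaling it was about level with GI tract (97.3 against 98.9 scaled CPM). The female head exceeded the male head 45.3-fold for *vtga2* (29.8 to 72.6), 32.8-fold for *serpina3m* (8.75 to 276), 3.80-fold for *serpina3k* (2.09 to 7.40), 3.59-fold for *serpina1* (2.22 to 6.03) and 1.76-fold for *rbp4* (1.69 to 1.82), all in CPM. The ratios of *fga* (1.74, 0.591 to 5.74), *ttr* (0.38, 0.0362 to 2.32) and *cps1* (1.27, 0.215 to 8.66) did not differ from equality beyond counting error. With 1 library per sex these ratios compare 2 libraries and not the sexes, and the part of the gut transcripts in them was not tested.

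Head was set against heart with 2 libraries each. *rbp4* averaged 238 ± 87.3 TPM in head and 0.20 ± 0.057 TPM in heart (SD, n = 2 each). Only 4 of the 8 genes passed the filter on low counts. They passed through the head libraries, having at most 9 counts in a heart, so how many of them were called in head is not read against other genes. None of them was called by edgeR, which called 0% of 19276 genes in either direction (4668 at an unadjusted p under 0.05). *rbp4* was 9.41 ± 0.91 (SE) higher in head on the log2 scale with an edgeR adjusted p of 0.0664. No gene had a lower adjusted p, but the adjustment gives many genes this same value, so it does not rank *rbp4* first. *vtga2* was 5.71 ± 2.10 higher (edgeR adjusted p = 0.20). This *vtga2* difference rested largely on the female head: it was 1.18 with that library left out and 6.64 with the male head left out. *serpina1* and *serpina3k*, at 0 in both hearts, had edgeR adjusted p-values of 0.0932 and 0.105.

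With 1 library left out, so that its tissue is a single library assumed to vary like the other, *rbp4* was called higher in head in each edgeR fit (adjusted p between 0.0011 and 0.015). No other of the 8 genes was called in these fits. Among all genes 559 of 20013 were called without the female head, 458 of 20080 without the male head, 10396 of 20784 without the male heart and 6091 of 20526 without the female heart. Blocking on sex in edgeR gave 3 of the 4 genes higher in head, where 13% of all genes were called higher and 1.42% lower: *rbp4* (adjusted p = 3.22e-09), *serpina1* (0.0172) and *serpina3k* (0.0359). DESeq2 called all 4 higher, where 16.9% of all genes were called higher and 3.39% lower. limma called only *rbp4* (adjusted p = 0.0137), where 19.9% were called higher and 0.384% lower. In the blocked, DESeq2 and limma fits the same 4 genes had passed the filter through the head libraries. How many of them were called is again not read against these shares.

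The sexes were compared in these 4 libraries, with tissue as a covariate. None of the 4 genes was called in females against males by edgeR, which called 1.55% of all genes higher and 0.0726% lower in females, nor by DESeq2, which called 2.67% higher and 0.202% lower. *vtga2*, the yolk precursor gene, was 2.38 ± 1.99 (SE) higher in females on the log2 scale (edgeR adjusted p = 0.989), and *rbp4* 0.07 ± 1.17 higher (edgeR adjusted p = 1). *serpina1* and *serpina3k* had log2 differences of 1.75 ± 2.08 and 1.82 ± 2.15 (edgeR adjusted p = 0.989 for each). This fit has 1 residual degree of freedom, which limits what it can detect. The female libraries also held more transcripts of other tissues. *prss1* stood at 761 TPM in the female head and 1.59 TPM in the male head. Oocyte genes summed to 4178 TPM in the female heart and 19.3 TPM in the male heart. Sex and the content of such transcripts cannot be told apart in this fit.

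Other retinol-binding protein genes were set beside *rbp4* by their symbols. *rbp4l* was also high in both heads, with 288 TPM in the female head and 235 TPM in the male head, but it had 0.62 TPM in GI tract and 0.22 TPM in intestine. *rbp3*, which carries retinoids between photoreceptors and the pigment epithelium of the eye, had 37.5 TPM in the female head and 38.7 TPM in the male head and was at 0 in GI tract. *rbp5* had 157 TPM in the female head and 74.0 TPM in the male head, against 0.08 TPM in GI tract. Retinal pigment epithelium genes, as a list of 12, summed to 357 TPM in the female head and 349 TPM in the male head, 867 TPM in lung, and 691 TPM in the female heart and 45.1 TPM in the male heart. Adipose genes, also 12, summed to 555 TPM in the female head and 554 TPM in the male head, 964 TPM in ovary, 721 TPM in lung, and 494 TPM in the female heart and 327 TPM in the male heart. Neither list had its highest sum in the heads, but single genes of each list were highest there. *rpe65* had 54.5 TPM in the female head and 53.4 TPM in the male head, and at most 0.89 TPM elsewhere. *rlbp1* had 48.4 and 45.2 TPM in these heads, and at most 13 TPM elsewhere. *adipoq* had 101 and 131 TPM in them, and at most 23 TPM elsewhere. Others were not, such as *pmel*, highest in lung (565 TPM), and *fabp4*, highest in ovary (822 TPM). The part of either list in the *rbp4* level of the heads was not tested. *rbp2*, which binds retinol inside absorptive cells of the intestine, had 1150 TPM in GI tract and 508 TPM in intestine, a pattern unlike that of *rbp4*.

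No other symbol in the tables began with vtg. Next to *vtga2* in the RefSeq order lie 2 genes known only by a code, LOC100485054 and LOC100494633. LOC100494633 had 483 TPM in GI tract and 0.02 TPM in intestine, 133 TPM in testes and 0.01 TPM in ovary, and 9.31 TPM in the female head and 0.60 TPM in the male head. LOC100485054 had 149 TPM in GI tract and 0.01 TPM in intestine, and 50.3 TPM in testes and 0.01 TPM in ovary. Both followed the same order of libraries as *vtga2* through GI tract, testes, the female head and the male head. If they are near-identical copies of it, reads could be split among the 3, which was not tested.

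Most serpins outside the A group had no such difference. The serpin genes with at least 10 TPM in GI tract beyond the 3 were *serpinb1*, *serpinb6*, *serpinc1*, *serpine2*, *serpinf1*, *serpinf2*, *serpini1* and *serpini2*, and of these only *serpinc1* was 4-fold higher in GI tract than in intestine. *serpinb1* had 158 TPM in GI tract and 136 TPM in intestine. *serpinf1*, for pigment epithelium-derived factor, had 17.9 TPM in GI tract and 16 TPM in intestine, and *serpinf2*, for the plasmin inhibitor, 26.7 TPM in GI tract and 23.4 TPM in intestine.

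Likeness to the 8 genes was measured as the Pearson r of log2(TPM + 1) with their mean profile over 9 libraries, among 11179 genes with a symbol and at least 10 TPM in 1 library. The 10 most alike were *hrg* (0.985), *cyp21a2.1* (0.968), *dhdh* (0.968), *fgg* (0.966), *arsa.2* (0.963), *vtn* (0.960), *ahsg* (0.942), *serpinc1* (0.920), *npc1l1* (0.913) and *apoc2* (0.876). Of these 10, 6 are on the plasma protein list, which was made with earlier results of these data known, so nothing is read from that count. *dhdh* had 30.9 TPM in GI tract and 0 in intestine, 7.98 TPM in testes and 0 in ovary, and 0.96 TPM in the female head and 0.02 TPM in the male head. *npc1l1*, a cholesterol uptake transporter, had 85.2 TPM in GI tract and 5.69 TPM in intestine, 34.0 TPM in testes and 0.14 TPM in ovary, and 5.07 TPM in the female head and 5.57 TPM in the male head. The 10 genes rest on GI tract: without that library 0 of them were among the 10 most alike, and without testes 9 of them were.

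**Figure D4:**
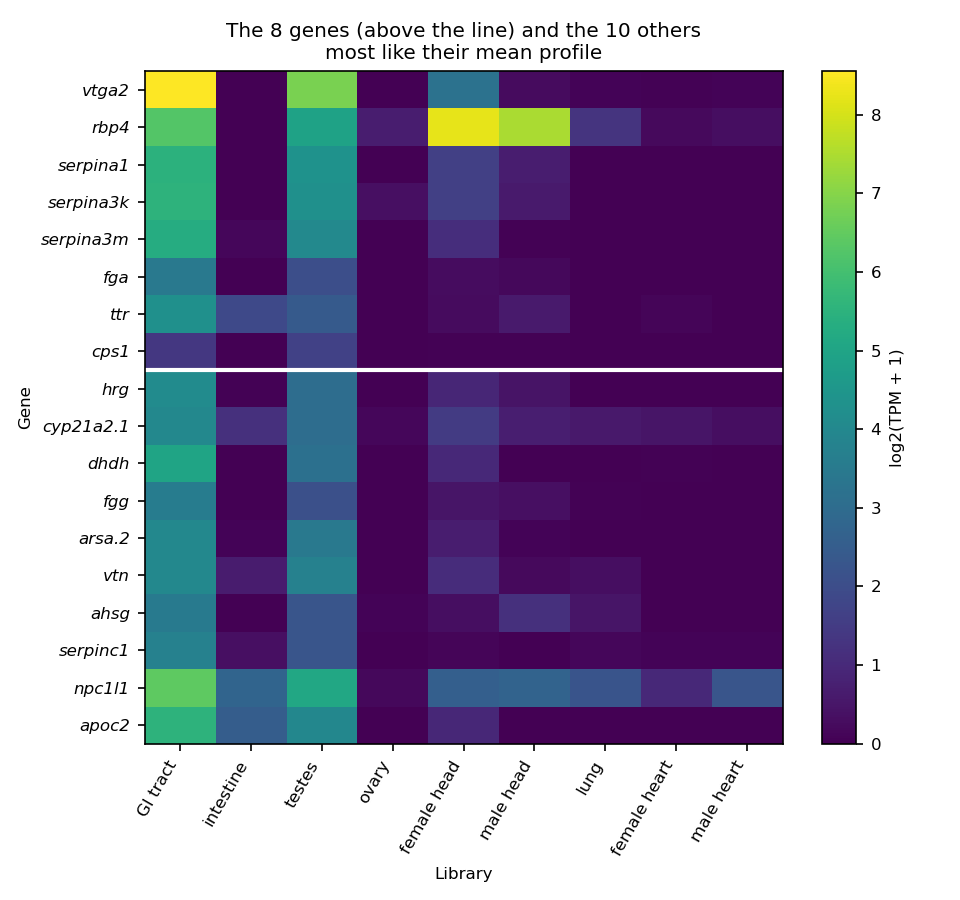
Level of the 8 genes (above the white line) and of the 10 genes most like their mean profile (below it) in the 9 libraries, as log2(TPM + 1) by colour. GI tract and testes are the bright columns for most rows, intestine is dark for most of them, and *rbp4* is bright in both heads.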

How the data were processed

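The authors deposited a table of counts and a table of TPM per gene, with the 9 libraries as columns. The tools on record, per the submitters' processing notes, are RSEM 1.3 and deepTools, without a stated role. The deposited counts were read as RSEM expected counts (estimated counts) rounded to whole numbers, since 1272 cells hold a count of 0 beside a TPM above 0. The aligner, genome build and annotation were not given in the sources used here. Positions on the genome were therefore left out. The row with no gene name (0.011% to 1.78% of counts) was left out.

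The 8 genes and all gene lists were chosen with earlier results of these data known. Genes named are the 8, symbols starting vtg, fga, fgb, fgg, ttr or rbp, serpins with at least 10 TPM in GI tract, the 5 highest of a list in GI tract, and the 10 most alike. Members of a list past 4-fold, defining markers, neighbours and *serpina3* were named after their values were seen.

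Tests used edgeR 4.0.16 quasi-likelihood on the counts, with TMM scaling, its default filter on low counts and Benjamini-Hochberg adjustment at 0.05 over all genes tested. Head against heart used 4 libraries (2 residual degrees of freedom), and testes against ovary all 9, with a mean per tissue (2 residual degrees of freedom). The SE given for an edgeR log2 difference is the size of that difference divided by the square root of its F statistic. It is approximate, above all where a group has few or no counts. DESeq2 1.42.0 and limma 3.58.1 were alternatives. The edgeR test of each comparison was tried on simulated counts with the same spread for every gene. Its setting is simpler than these libraries, so it checks the code and not what the test can detect here. Differences on the TPM scale used a pseudocount of 1. Neighbouring genes came from the RefSeq gene table, which held all 8 genes.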

Additional observations from a re-analysis of the deposited data

Results flagged for a closer look

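For *vtga2* the female library minus the male library was 8.22 TPM in head and -0.03 TPM in heart, values of opposite sign in the 2 tissues. For *rbp4* the same differences were 124 TPM in head and -0.08 TPM in heart. Neither difference between the tissues was tested, since each is 1 library of a sex. In the hearts the libraries did not differ beyond counting error: they had few counts, 4 in the female and 9 in the male heart for *vtga2*, and 4 in the female and 7 in the male heart for *rbp4*.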

How the results depend on the processing

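With 1 or 2 libraries per tissue, the number of genes called moved widely with the tool. Head against heart gave 0 calls, but 3907 with DESeq2, 3912 with limma, 2784 with sex as a block, and 458 to 10396 with 1 library left out. Female against male gave 312 calls, 553 with DESeq2 and 0 with limma. Leaving out a library there leaves no residual degrees of freedom and was not run. Testes against ovary gave 0 calls, 6149 with DESeq2, 5240 with limma, and 0 to 11227 with 1 head or heart library left out. GI tract against intestine gave 0 calls (231 genes at an unadjusted p under 0.05 in edgeR) and 35 with DESeq2. The cause was not tested.

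For the 8 genes, 34 alternative tests passed the threshold where the reported one had not, 85 stayed on their side, and none changed direction. In GI tract against intestine, 14 of 16 log2 differences moved beyond their counting interval with a pseudocount of 0.1 or with CPM, all in the same direction. Of the 10 genes most alike, 2 were shared by Spearman's rho and 0 by Pearson's r without GI tract. The alternative without testes was chosen after seeing the data. The labels carry no replicate numbers, and sex, which pairs the head and heart libraries, is the block given above. Depth limits *ttr*, *fga* and *cps1* in the heads, which had 2 to 11 counts each. It also limits *serpina3m* in the male head, which had 2 counts, under the floor.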
